A study of Mus musculus with 12 samples.

Results

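*Rag1* and *C2cd4b* are 2 genes whose signals were higher in *Otx2* CKO than in control mouse retina at P12 and not at P1. They were chosen on these same arrays for a P12 rise in the *Otx2* CKO that was absent at P1, so their genotype differences at both ages are given as a description with no test. *Rag2* and *C2cd4a*, the neighboring relatives of each, were added for comparison. Of these 4 genes, 3 have a probe set with 1 gene symbol among the 45101 probe sets of the array, *Rag1*, *C2cd4b* and *Rag2*, with 1 probe set each. No probe set is named *C2cd4a* in the annotation used, and *C2cd4a* mRNA was not analysed here.

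The arrays hold whole-retina RNA of mice that all carry *Otx2* flox/flox. *Otx2* CKO mice have Crx-Cre+ and control mice Crx-Cre-, so that Cre recombinase was driven by the *Crx* promoter, which is active in developing photoreceptors, while the RNA came from all retinal cells. The 4 groups were P12 *Otx2* CKO, P12 control, P1 *Otx2* CKO and P1 control, at postnatal day 12 or 1, with 3 arrays each. Nothing in the sources says whether an array held 1 animal or a pool, so p-values measure the spread between these arrays, which may be technical.

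RAG1 and RAG2 together form the recombinase that cuts DNA beside the gene segments of antibodies and T cell receptors in developing lymphocytes, and the cut ends are then sealed by the non-homologous end joining machinery. *Rag1* transcripts without *Rag2* have also been described in mouse brain neurons. C2CD4A and C2CD4B are related nuclear proteins described in human endothelial cells, where inflammatory cytokines induce them, and their genes lie in a region linked to type 2 diabetes in people.

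*Rag2* and *Rag1* lie on mouse chromosome 2 (GRCm38.p6), at chr2:101624712-101632528 and chr2:101638252-101649532, with 5723 bases between them. *C2cd4b* and *C2cd4a* lie on chromosome 9, at chr9:67716224-67760933 and chr9:67830532-67832330, with 69598 bases between them. The windows from 250 bases before to 50 bases after the start site of *Rag1* (chr2:101649483-101649782, minus strand) and *C2cd4b* (chr9:67759187-67759486, plus strand) are shown because both genes were higher in P12 *Otx2* CKO. For *C2cd4b* the RefSeq start site used lies inside the locus given above, close to its last base, and a start at the first base of the locus was not examined. Capitals mark CAGCTG, an E-box sequence that reads the same on both strands. Sequences are from RefSeq, 5′ to 3′ on the strand of the gene.
Rag1: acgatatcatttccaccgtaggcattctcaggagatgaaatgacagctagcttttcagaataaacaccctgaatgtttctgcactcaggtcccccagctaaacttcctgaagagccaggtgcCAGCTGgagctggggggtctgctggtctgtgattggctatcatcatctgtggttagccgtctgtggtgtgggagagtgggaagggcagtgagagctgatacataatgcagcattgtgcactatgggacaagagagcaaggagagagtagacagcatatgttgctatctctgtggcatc
C2cd4b: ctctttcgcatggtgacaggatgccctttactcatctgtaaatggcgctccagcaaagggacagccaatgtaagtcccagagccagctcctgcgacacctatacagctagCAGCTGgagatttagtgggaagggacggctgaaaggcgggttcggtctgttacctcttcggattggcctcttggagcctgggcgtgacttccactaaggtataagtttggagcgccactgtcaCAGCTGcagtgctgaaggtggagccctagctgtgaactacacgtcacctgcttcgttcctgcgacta
CAGCTG was found 1 time in the *Rag1* window, 128 bases upstream of the start site, and 2 times in the *C2cd4b* window, 140 and 17 bases upstream. It was not found in the windows of *Rag2* (chr2:101624462-101624761) and *C2cd4a* (chr9:67832281-67832580), and 16.3% of the 32851 RefSeq promoter windows hold it. The OTX and CRX core sequence TAATCC and the homeodomain sequence TAATTA, searched on both strands, were in none of the 4 windows, against 7.06% and 5.29% of all windows. These are matches of letters in a short window and say nothing of binding.

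The *Otx2* signal was 245, 166.8 and 107.9 in the P12 *Otx2* CKO arrays, against 1057.7, 1047.7 and 802.9 in the P12 control arrays. At P1 it was 143.8, 107.8 and 154 in the *Otx2* CKO arrays and 376, 358 and 282.9 in the control arrays. The genotypes were thus apart at both ages, with the *Otx2* CKO arrays lower, although the position of the probe set relative to the floxed exons was not established. The P12 arrays were brighter than the P1 arrays, with a median signal of 25.4 to 56 in P12 *Otx2* CKO, 24.3 to 36.9 in P12 control, 5.1 to 7.9 in P1 *Otx2* CKO and 7.3 to 7.8 in P1 control. The brightest array was P12 *Otx2* CKO replicate 1.

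*Rag1* had a signal of 259, 104.4 and 178.3 in the P12 *Otx2* CKO arrays, against 12.6, 0.6 and 4.8 in the P12 control arrays. The lowest P12 *Otx2* CKO array was 8.29 times the highest P12 control array. At P1 the *Rag1* signal was 3.6, 2 and 3.3 in the *Otx2* CKO arrays and 6.3, 7.8 and 4.9 in the control arrays. All of these P1 values were small, and the *Otx2* CKO arrays lay just below the control arrays, with the lowest control array at 1.36 times the highest *Otx2* CKO array. Only the P12 *Otx2* CKO arrays and 1 P1 control array had a *Rag1* signal above their array's own median.

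**Figure D1:**
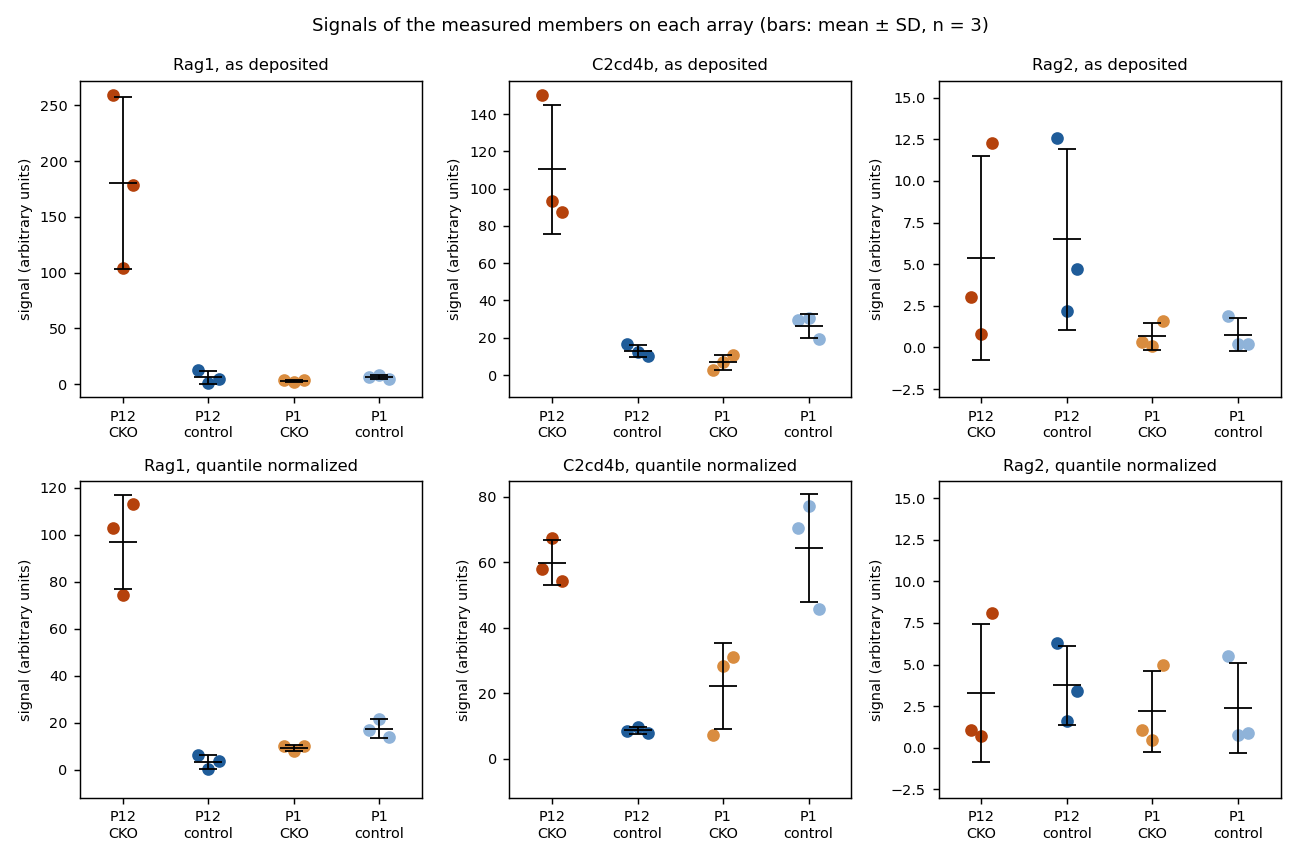
Signal (arbitrary units) of *Rag1*, *C2cd4b* and *Rag2* on each of 12 arrays, as deposited (upper row) and after quantile normalization of the 12 arrays (lower row), with points for arrays and bars for the mean ± SD (n = 3). *Rag1* and *C2cd4b* stood above the controls in all 3 P12 *Otx2* CKO arrays, *C2cd4b* in P1 control reached the P12 *Otx2* CKO level in the lower row and not in the upper row, and the *Rag2* arrays of the genotypes overlapped at both ages.

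*C2cd4b* had a signal of 150.4, 93.6 and 87.4 in the P12 *Otx2* CKO arrays, against 16.7, 12.2 and 10.2 in the P12 control arrays. The lowest P12 *Otx2* CKO array was 5.23 times the highest P12 control array. At P1 the order was turned round, with 2.5, 7.2 and 10.5 in the *Otx2* CKO arrays and 29.3, 30.6 and 19.1 in the control arrays. Here the lowest P1 control array was 1.82 times the highest P1 *Otx2* CKO array. The gap between the P1 genotypes was thus wider for *C2cd4b* than for *Rag1*, and both genes lay below the mean signal of 50 that was required for a test.

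*Rag2* had a signal of 3, 0.8 and 12.3 in the P12 *Otx2* CKO arrays, against 12.6, 2.2 and 4.7 in the P12 control arrays. At P1 it was 0.3, 0.1 and 1.6 in the *Otx2* CKO arrays and 1.9, 0.2 and 0.2 in the control arrays. *Rag2*, the partner that RAG1 needs to cut DNA, was below the array's median signal on all 12 arrays, and the genotypes overlapped at both ages. Its group means were too low for the main test. In limma without a signal limit its difference was −0.08 at P12 (SE 0.19, adjusted p = 0.828) and −0.01 at P1 (SE 0.19, adjusted p = 1). A difference of a few signal units in *Rag2* was not detectable with 3 arrays a group.

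On the scale of log2(signal + 16), the *Otx2* CKO minus control difference of *Rag1* was 3.12 at P12 and −0.23 at P1, so that the genotype differences at the 2 ages were 3.35 apart. That of *C2cd4b* was 2.10 at P12 and −0.90 at P1, 3.0 apart. Over all probe sets tested at each age, the median difference was 0.39 at P12 and −0.2 at P1. The P1 difference of *Rag1* was thus close to the P1 median. In group means, *Rag1* was 181 ± 77.3 in P12 *Otx2* CKO and 6.0 ± 6.09 in P12 control, and *C2cd4b* was 111 ± 34.7 and 13.0 ± 3.33 (SD, n = 3 each). These differences were the ground for choosing both genes and carry no p-value. Of the 3 measured members, 2 had every *Otx2* CKO array below control at P1 and above control at P12, a pattern that 1.34% of all 45037 probe sets other than array controls showed. Separation upward at P12 alone was found in 13.4%.

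**Figure D2:**
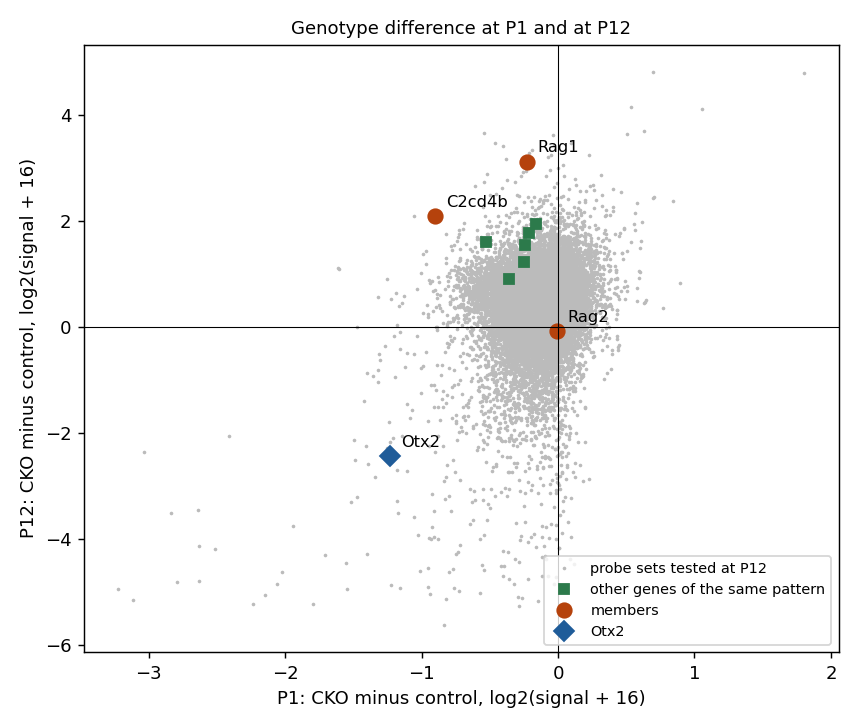
*Otx2* CKO minus control on the scale of log2(signal + 16), at P1 (x axis) and at P12 (y axis), for each probe set tested at P12, with the members, *Otx2* and 6 other genes of the same pattern marked. *Rag1* (−0.23, 3.12) and *C2cd4b* (−0.90, 2.10) lay at the upper left and *Rag2* near 0 on both axes.

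With age, *Rag1* was 3.29 and *C2cd4b* 2.46 higher at P12 than at P1 in the *Otx2* CKO retina, on the same log2 scale. In the control retina the P12 minus P1 differences were −0.06 for *Rag1* and −0.54 for *C2cd4b*, with adjusted p = 0.869 and 0.0816 (limma without a signal limit), and 0.40 for *Rag2* (adjusted p = 0.081). These age differences share the control arrays with the genotype differences for which *Rag1* and *C2cd4b* were chosen. That choice favors a low P12 control and a high P1 control, so the age p-values of these 2 genes are not independent of it. The age differences also depend on how the ages are scaled to each other, since the P1 arrays were dimmer throughout. After quantile normalization of the 12 arrays, *C2cd4b* was 8.4, 9.7 and 7.7 in P12 control and 70.5, 77.2 and 45.8 in P1 control, a difference of −1.69 (adjusted p = 0.000334, limma). On that scale the P12 *Otx2* CKO arrays, at 57.9, 67.5 and 54.4, overlapped the P1 control arrays for *C2cd4b*, and they did so after median scaling as well, with means of 61.7 in P12 *Otx2* CKO and 71.0 in P1 control. *Rag1* kept the P12 *Otx2* CKO arrays apart from all others, at 103, 74.4 and 113.1, against at most 21.6 elsewhere.

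The genotype separation within an age did not depend on the scaling. With arrays brought to a common trimmed mean within an age, *Rag1* was 174.7, 111.7 and 188.1 in P12 *Otx2* CKO and 15.1, 0.6 and 5.7 in P12 control. On this scale *C2cd4b* was 101.4, 100.2 and 92.2 in P12 *Otx2* CKO and 20.1, 12.7 and 12.1 in P12 control, and its 3 P12 *Otx2* CKO arrays were closer together than as deposited. Both genes had the *Otx2* CKO arrays above control at P12 and below control at P1 in the deposited values and under all 3 other scalings.

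*Rag1* and *C2cd4b* had a Pearson correlation of 0.94 over the 12 arrays on the log2 scale, points that share 4 groups and an array brightness. Among the 18676 probe sets with 1 symbol that were tested at P12, the 5 most like *Rag1* were *Nfib* (r = 0.986), a nuclear factor I transcription factor, *Frmd4a* (r = 0.977), *Txnip* (r = 0.976), which encodes the thioredoxin-interacting protein, *C3ar1* (r = 0.976), the receptor of complement fragment C3a, and *Cyp1b1* (r = 0.976), a cytochrome P450. The *Nfib* probe set of this rank had a signal of 236.4, 96.7 and 263.7 in P12 *Otx2* CKO and 33, 14.5 and 21 in P12 control. At P1 *Nfib* ranged over 10.5 to 19 in *Otx2* CKO and 15.2 to 18.8 in control. These overlapping P1 values differ from the separated P1 arrays of *Rag1*.

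The 5 most like *C2cd4b* were *Chrnb4* (r = 0.968), a subunit of nicotinic acetylcholine receptors, *Txnip* (r = 0.959), *Mapre1* (r = 0.947), which encodes the microtubule plus-end protein EB1, *Rag1* (r = 0.94) and *Heph* (r = 0.938), the copper ferroxidase hephaestin. *Txnip* was among the 5 for both genes, with 433.7, 276.5 and 292.7 in P12 *Otx2* CKO and 74.8, 74.5 and 54.4 in P12 control. *Chrnb4* had 207.1, 116.4 and 117.9 in P12 *Otx2* CKO and 29.5, 43.7 and 35 in P12 control. At P1 *Chrnb4* had 24.5, 23.7 and 23.5 in *Otx2* CKO and 49.6, 41.7 and 34.2 in control, so that it was also apart in the opposite direction. The genes were picked for this likeness, and it is a description.

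**Figure D3:**
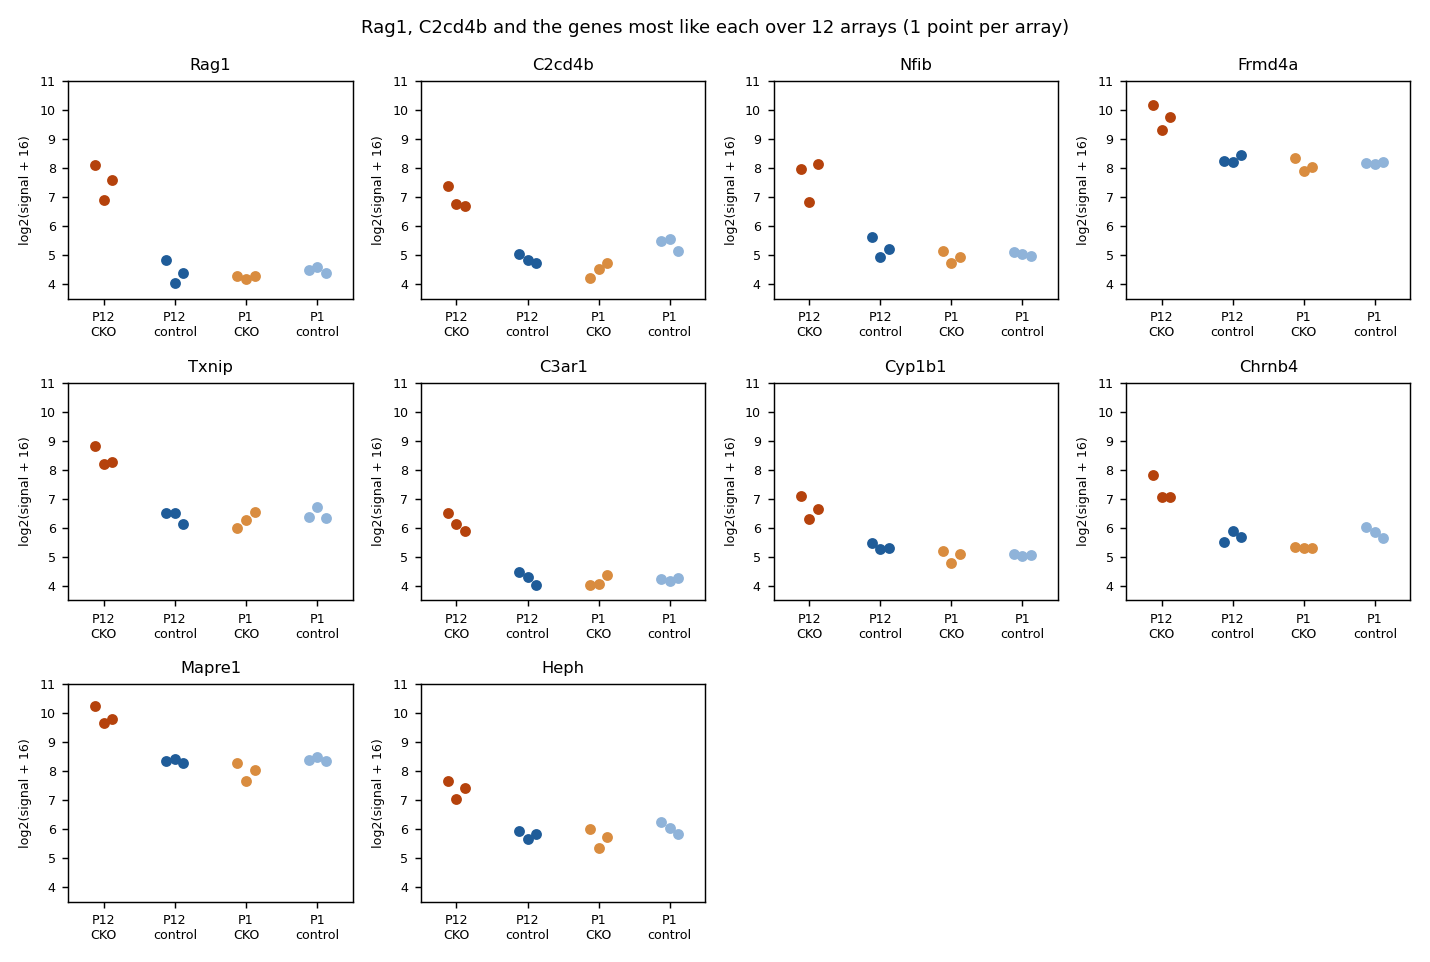
log2(signal + 16) on each of 12 arrays for *Rag1*, *C2cd4b* and the 8 other genes with the highest correlation with either, 1 point per array. In all 10 panels the 3 P12 *Otx2* CKO arrays were the highest, while the P1 genotypes were apart, with *Otx2* CKO lower, for *Rag1*, *C2cd4b*, *Chrnb4* and *Mapre1* and overlapped for the other 6.

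A mean signal of at least 100 in P12 *Otx2* CKO and below 50 in the other 3 groups, which both *Rag1* and *C2cd4b* met, was found in 387 probe sets, or 0.859% of all. This class sets the ages against each other on the deposited signals, where the P1 arrays were dimmer. After quantile normalization neither gene met it, with a P12 *Otx2* CKO mean of 96.8 for *Rag1* and of 59.9 for *C2cd4b*, whose P1 control mean was then 64.5. The *Otx2* CKO arrays were all above control at P12 in 231 of the 387, and all below control at P1 in 13 of the 387. Both held for 8 of the 299 with 1 symbol. These were *Necab1*, *Rag1*, *Tyrp1*, *Chrnb4*, *Isoc1*, *Vegfc*, *C2cd4b* and *Hibch*, named after their values were seen. Over all 45037 probe sets other than array controls, both held for 605, among 6038 that were above control at P12. *Vegfc*, a growth factor of lymphatic vessels, had 133.3, 103.8 and 104.6 in P12 *Otx2* CKO and 21.4, 20.7 and 22.5 in P12 control. *Tyrp1*, a melanin synthesis enzyme of pigment cells, had 146.7, 212.8 and 140.2 in P12 *Otx2* CKO and 44.9, 45.6 and 47.2 in P12 control. In these 8 genes other than *C2cd4b* and *Chrnb4* the P1 difference was small, between −0.16 and −0.36 on the log2 scale, and *C2cd4b* had the largest P1 difference, −0.90. The 10 genes with the highest P12 *Otx2* CKO mean in this class were *Igfbpl1*, *Lyz1*, *Ier5*, *Klhl35*, *Nfib*, *Lyz2*, *Mpeg1*, *Necab1*, *Nexmif* and *2310067E19Rik*. *Lyz1* and *Lyz2* are lysozymes, and *Lyz2* and the pore-forming protein *Mpeg1* are of phagocytes. *Igfbpl1* had 738.4, 965.8 and 711.6 in P12 *Otx2* CKO and 5.2, 30.2 and 9.3 in P12 control. In contrast to *C2cd4b*, *Igfbpl1* was also higher in the P1 *Otx2* CKO arrays, with 31.9, 22.8 and 25.4, than in the P1 control arrays, with 6.1, 7.5 and 18.6.

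Genes of the reaction that RAG1 starts were compared next, in limma with the 12 arrays in 1 model, where a probe set was tested if its mean signal reached 50 in a compared group. Over all 21390 probe sets tested at P12, 14.1% were higher and 4.54% lower in *Otx2* CKO at an adjusted p under 0.05, and the median difference was 0.39. With experiment number as a block the higher calls were 4638 rather than 3019, and leaving out single arrays gave 1536 (without P12 control replicate 3) to 5004 (without P12 control replicate 2). With each age fitted alone 377 were higher and 438 lower, and the higher calls were 780 after median scaling, 1345 after quantile normalization and 1789 after trimmed mean scaling within an age. The higher calls made up 75.7% of all calls on the deposited signals, 48.4% after quantile normalization, 49.8% after trimmed mean scaling within an age and 45.1% after median scaling, where the median difference was 0.07, 0.08 and 0.10, and 46.3% with each age fitted alone. In whole-retina RNA, fewer cells of a type and less RNA per cell cannot be told apart.

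Of 16 genes of RAG recombination and end joining, 14 had a named probe set, 10 were tested at P12, and none passed the threshold in limma (median difference 0.35, close to that of all probe sets). *Xrcc5*, which encodes the Ku80 end-binding protein, had 0.76 (adjusted p = 0.0851), with 0.0324 in the fit with a block and 0.0444 without P12 *Otx2* CKO replicate 2. *Hmgb2*, a DNA-bending cofactor of the recombinase, had 0.59 (adjusted p = 0.106), and 0.0222 without P12 control replicate 2. *Prkdc*, the DNA-dependent protein kinase, had 0.53 (adjusted p = 0.34), and *Dntt*, the terminal transferase of lymphocytes, was below the limit with a mean of 14.2 in P12 *Otx2* CKO and 6.83 in P12 control.

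Of 20 transcription factors that act on the *Rag* genes in lymphocytes, 11 were tested at P12 and 5 were higher in *Otx2* CKO, with a median difference of 0.66. Over all probe sets tested at P12, 14.1% were higher and 4.54% lower. *Myb*, a factor of lymphoid and other progenitors, had 630.9, 287.2 and 441.6 in P12 *Otx2* CKO and 107.6, 65.8 and 97.8 in P12 control (difference 2.10, adjusted p = 0.000246, limma). *Satb1*, a chromatin organizer of thymocytes and neurons, had 1053.9, 415.2 and 439.2 in P12 *Otx2* CKO and 196.9, 109.8 and 165.3 in P12 control (difference 1.81, adjusted p = 0.00293, limma). Both kept their calls under every alternative and with each array left out. *Bcl11a* (1.08, adjusted p = 0.00309), *Ebf1* (1.39, adjusted p = 0.0328) and *Tcf3* (0.83, adjusted p = 0.022), which act in B cells among other cells, also passed in limma. Under quantile normalization, under median scaling and with each age fitted alone 2 of 11 were higher, and under trimmed mean scaling within an age 3 of 11. *Ebf1* missed the threshold under all 3 other scalings (0.112 to 0.18), with no signal limit (0.0519), with each age fitted alone (0.146) and without P12 control replicate 1 (0.102), P12 control replicate 2 (0.0593), P12 *Otx2* CKO replicate 1 (0.0642) or P12 *Otx2* CKO replicate 3 (0.11), and *Bcl11a* missed it under quantile normalization (0.0684), median scaling (0.165) and with each age fitted alone (0.102). *Tcf3* also missed it under all 3 scalings (0.0794 to 0.355), with each age fitted alone (0.223) and without P12 control replicate 3 (0.0937), P12 *Otx2* CKO replicate 1 (0.0537) or P12 *Otx2* CKO replicate 2 (0.0504). With P12 *Otx2* CKO replicate 1 left out, 3 of 11 were higher. *Zfp608* passed with a block (0.041) and without P12 *Otx2* CKO replicate 2 (0.0329) but not otherwise in the main comparison (0.66, adjusted p = 0.0882).

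Unlike *Myb*, which in *Otx2* CKO had 558.7 to 767.2 at P1 and in control 747.5 to 816.8, *Rag1* was low at P1 in both genotypes. *Satb1* was 84.9 to 131.8 in P1 *Otx2* CKO and 100.3 to 110.5 in P1 control.

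Markers of lymphocytes, the cells in which *Rag1* acts, were largely below the limit. Of 18 markers with a named probe set, 16 had a mean below 50 in all 4 groups, among them the T cell receptor chains *Cd3d*, *Cd3e* and *Cd3g* and the B cell genes *Cd79a*, *Cd79b* and *Ms4a1*. The summed signal of all 18 was 255.4 to 595.2 in P12 *Otx2* CKO and 190 to 576 in P12 control, and 49 to 57.8 in P1 *Otx2* CKO and 52.6 to 60.9 in P1 control. The 2 tested, *Ighm* (−0.11, adjusted p = 0.846) and *Zap70* (0.84, adjusted p = 0.366), are part of that sum and did not pass in limma. *Zap70*, a T cell receptor kinase, had 109.7, 142.9 and 86.9 in P12 *Otx2* CKO and 280.7, 13.2 and 25.6 in P12 control, and passed without P12 control replicate 1 (1.87, adjusted p = 0.00176). *Ptprc*, which encodes the CD45 phosphatase of all white blood cells, passed without P12 *Otx2* CKO replicate 2 (1.12, adjusted p = 0.0299), and *Cd79a* was lower in the fit without a signal limit (−0.39, adjusted p = 0.0318).

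Microglia and macrophage markers were higher in P12 *Otx2* CKO. Of 13 with a named probe set, 11 were tested and all 11 were higher in P12 *Otx2* CKO (10 without P12 *Otx2* CKO replicate 1 or P12 control replicate 3, and 9 with each age fitted alone), with a median difference of 1.95. The summed signal of all 13 was 3633.3 to 4644.1 in P12 *Otx2* CKO and 670.9 to 1248 in P12 control. At P1 the sum was 118.6 to 156.9 in *Otx2* CKO and 66.2 to 143.4 in control, and none was bright enough for a test. *C1qa*, a chain of complement C1q, had 487.4, 868.6 and 485.1 in P12 *Otx2* CKO and 78.4, 112.9 and 65.7 in P12 control (difference 2.60, adjusted p = 3.43e-05, limma). *C1qc* (2.59, adjusted p = 0.000106), *Tyrobp* (2.39, adjusted p = 1.28e-05) and *C1qb* (2.36, adjusted p = 0.000124), also of microglia, rose as well. The named markers did not share an order over the P12 *Otx2* CKO arrays. *C1qa*, *C1qb* and *C1qc* were highest in replicate 2, the array in which *Rag1* was lowest. *Tyrobp* was nearly level, with 388.7, 391.7 and 342. *C3ar1*, named above for its likeness with *Rag1* (r = 0.976), had 74.7, 53.7 and 42.7. On these deposited signals it was highest in replicate 1, the brightest array, as *Rag1* was. Under quantile, median and trimmed mean scaling *Rag1* was instead highest in replicate 3, with 103, 74.4 and 113.1 after quantile normalization. The order of *C3ar1* on those scales was not examined. The part of microglia and macrophages in the *Rag1* and *C2cd4b* signals was not tested.

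Of 11 amacrine cell markers tested, 6 were higher in P12 *Otx2* CKO, 5 did not pass and none was lower, with a median difference of 1.24. The summed signal of all 14 with a named probe set was 11657.9 to 16841.2 in P12 *Otx2* CKO and 6270.6 to 9542.8 in P12 control. The transcription factors *Tfap2c* (2.21, adjusted p = 0.00179) and *Pax6* (1.55, adjusted p = 0.000224) kept their calls under every alternative. *Barhl2* (1.4, adjusted p = 0.0262) and the inhibitory transmitter carrier *Slc32a1* (1.29, adjusted p = 0.0142) did not, with 0.158 and 0.194 after median scaling and 0.165 and 0.119 with each age fitted alone. *Barhl2* also missed the threshold after trimmed mean scaling within an age (0.0564), with an offset of 1 (0.0582) and without P12 control replicate 1 (0.065), P12 *Otx2* CKO replicate 1 (0.0641) or P12 *Otx2* CKO replicate 2 (0.0599). With a block 8 of 11 were higher, with *Tfap2a* (0.76, adjusted p = 0.0539, and 0.0485 with the block) and *Gad2* (1.43, adjusted p = 0.103, and 0.00692 with the block) added. After median scaling 2 of 10 were higher, with each age fitted alone 2 of 11, and without P12 *Otx2* CKO replicate 1, 4 of 10. The summed signal at P1 was 1670.3 to 2368.7 in *Otx2* CKO and 1755.3 to 2353.6 in control, and no marker passed there. The part of amacrine cells in the *Rag1* and *C2cd4b* signals was not tested.

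The other retinal lists had 8 of 8 rod markers lower at P12 (median −4.62), 4 of 5 bipolar markers lower, *Otx2* itself among them (median −2.97), 1 of 8 ganglion cell markers higher (median 0.64), 1 of 5 horizontal cell markers higher and 2 lower (median 0.71), and 5 of 8 Müller glia markers higher (median 0.93). With a block 5 of 5 bipolar, 2 of 8 ganglion and 2 of 5 horizontal cell markers passed in these directions, with *Prkca* (−1.22, adjusted p = 0.0684, and 0.00704 with the block), *Slc17a6* (1.16, adjusted p = 0.0509, and 0.0101 with the block) and *Prox1* (1.33, adjusted p = 0.0616, and 0.00428 with the block) added. The rod count was 8 of 8 under every alternative and with each array left out, and the bipolar count was 4 or 5. The Müller glia count was 3 without any 1 of the P1 arrays or without P12 *Otx2* CKO replicate 3, 2 without P12 control replicate 3, 7 without P12 control replicate 2, 2 after median scaling, 3 after quantile normalization or trimmed mean scaling and with no signal limit, and 1 with each age fitted alone. The ganglion count was 0 under each of the 3 scalings, with each age fitted alone and without P12 control replicate 1, P12 control replicate 3 or P12 *Otx2* CKO replicate 1, and 4 without P12 control replicate 2. The higher horizontal cell count ran over 0 to 2, and with each age fitted alone none was lower.

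Relatives of *C2cd4b* were looked at in the same way. Of 6 other C2cd genes with a named probe set, 5 were tested at P12, none was higher and 1 was lower. *C2cd4c*, the third of the C2cd4 genes, had a mean of 51.9 in P12 *Otx2* CKO and 34.4 in P12 control (difference 0.42, adjusted p = 0.319, limma). *C2cd2l*, a lipid transfer protein of contacts between the endoplasmic reticulum and the plasma membrane, fell to 259.6, 236.4 and 189.2 in P12 *Otx2* CKO, against 824.8, 1634.1 and 1307.2 in P12 control (difference −2.34, adjusted p = 5.64e-05, limma), and kept its call under every alternative.

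Of 19 cytokine response genes with a named probe set, 6 were tested at P12, 1 was higher and 1 lower, with a median difference of 0.40. *Vcam1*, a vascular adhesion protein, had 941.1, 736.2 and 496 in P12 *Otx2* CKO and 225.1, 266.8 and 196.2 in P12 control (difference 1.56, adjusted p = 0.000811, limma). *Tnfaip3*, an inhibitor of the NF-κB pathway, had 79.1, 39.5 and 44.8 in P12 *Otx2* CKO and 401.2, 894.6 and 761.2 in P12 control (difference −3.28, adjusted p = 1.15e-05, limma). The paper lists this *Tnfaip3* probe set as lower in the *Crx* KO and *Nrl* KO retinas as well as in *Otx2* CKO. The cytokines *Il1b*, *Tnf* and *Il6* had means of 23.4, 5.00 and 3.97 in P12 *Otx2* CKO and 21.5, 3.57 and 2.50 in P12 control, below the limit for a test. *Socs3*, a feedback inhibitor of cytokine receptors, had 0.72 (adjusted p = 0.1), and passed with a block (0.0486) and without P12 control replicate 2 (0.01). *Irf1* had 0.55 (adjusted p = 0.108), and passed without P12 *Otx2* CKO replicate 3 (0.0346). In the fit without a signal limit *Relb* passed (0.75, adjusted p = 0.0456).

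Of 8 endothelial markers tested, 1 was higher and 1 lower in P12 *Otx2* CKO, with a median difference of −0.34. *Kdr*, the main VEGF receptor of endothelial cells, was higher (1.4, adjusted p = 0.00884, limma), and missed the threshold with each age fitted alone (0.0996). The adhesion protein *Esam* was lower (−0.99, adjusted p = 0.0258, limma), and missed it after median scaling (0.0587), with an offset of 1 (0.128), with each age fitted alone (0.196) and without P12 control replicate 3 (0.0551) or P12 *Otx2* CKO replicate 3 (0.0758). *Pecam1* (−0.39, adjusted p = 0.268) and *Cdh5*, with a mean of 40.4 in P12 *Otx2* CKO and 42.2 in P12 control, had no call. After trimmed mean scaling within an age 4 were lower, *Pecam1*, *Cldn5* and *Eng* besides *Esam*. Of 5 islet and neuroendocrine genes tested none passed (median 0.03), and the islet factors *Pdx1* and *Nkx6-1* had means of 2.87 and 2.07 in P12 *Otx2* CKO and 5.73 and 1.90 in P12 control.

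**Figure D4:**
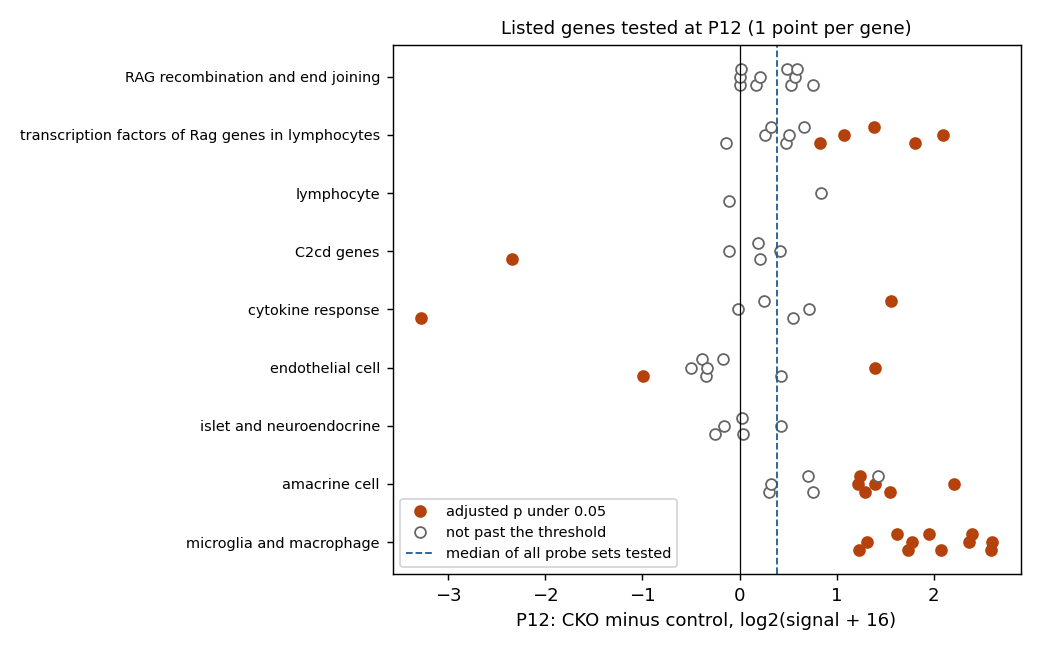
*Otx2* CKO minus control at P12 on the scale of log2(signal + 16), 1 point for each tested gene of 9 lists, with filled points past the threshold. The end joining genes lay around the median of all probe sets (0.39), and all 11 microglia markers lay above it.

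The chromosomal neighbors of the members were listed from the RefSeq gene table. Of the 2 nearest genes on each side of a pair, *Iftap*, *Traf6* and *Vps13c* had named probe sets, and the next protein-coding genes *Lrrc4c*, *Prr5l*, *Tpm1*, *Tln2* and *Rora* were added after these values were seen. Beside *Rag1* and *Rag2*, 3 of 7 tested probe sets of 4 genes were higher in P12 *Otx2* CKO and none lower, against 14.1% higher and 4.54% lower among all probe sets tested. *Iftap*, an intraflagellar transport protein whose locus overlaps that of *Rag2*, had 815.8, 546.4 and 492.2 in P12 *Otx2* CKO and 342.2, 222.2 and 204.2 in P12 control on its called probe set (difference 1.22, adjusted p = 0.0157, limma). At P1 this probe set had 146.7, 79.6 and 95.9 in *Otx2* CKO and 142.4, 229.8 and 129.1 in control, which overlap. The other *Iftap* probe set tested at P12 did not pass (difference 1, adjusted p = 0.131, limma). *Traf6*, a ubiquitin ligase of cytokine signaling, had 138.7, 71 and 67.8 in P12 *Otx2* CKO and 44.9, 25.9 and 25.4 in P12 control on 1 of its probe sets (1.14, adjusted p = 0.0138), while the other one tested did not pass (0.39, adjusted p = 0.316). *Prr5l*, an mTOR complex 2 protein, was the third (0.98, adjusted p = 0.00991). *Lrrc4c*, which ends at chr2:97631672 and so lies far from the pair, did not pass (1.13 and 0.91, adjusted p = 0.0769 and 0.171, limma). *Prr5l* missed the threshold after quantile normalization (0.143), after median scaling (0.229) and with each age fitted alone (0.161). *Iftap* missed it after median scaling (0.0602), with each age fitted alone (0.104) and without P12 control replicate 3 (0.0682) or P12 *Otx2* CKO replicate 1 (0.0512), and *Traf6* with each age fitted alone (0.153) and without P12 control replicate 3 (0.0579).

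Beside *C2cd4b* and *C2cd4a*, 2 of 14 tested probe sets of 4 genes were higher and none lower. That is close to the 14.1% higher, with 4.54% lower, among all probe sets tested at P12. *Vps13c*, the nearest gene with a probe set, had 0.60 (adjusted p = 0.295, limma). *Tpm1*, which encodes a tropomyosin, had 286.4, 237.6 and 217.4 in P12 *Otx2* CKO and 110.7, 166.6 and 125.9 in P12 control on 1 of its probe sets (0.82, adjusted p = 0.0178). It missed the threshold after quantile normalization (0.48, adjusted p = 0.13), after median scaling (0.51, adjusted p = 0.344), with each age fitted alone (0.223) and without P12 control replicate 3 (0.0633). The call of *Rora* rested on 1 probe set of 9 (1.26, adjusted p = 0.0388, limma), whose arrays overlapped. Most other tested *Rora* probe sets went the other way, lower in P12 *Otx2* CKO. They ranged from −1.39 to 1.13, and none passed. The call was kept in 2 of the 12 fits that left out an array, those without P12 control replicate 1 and without P12 *Otx2* CKO replicate 2 (0.0104 in each). The called probe set also missed the threshold after trimmed mean scaling within an age (0.0704), with an offset of 1 (0.0763), with no signal limit (0.0584) and with each age fitted alone (0.229). None of these neighbors had all *Otx2* CKO arrays below control at P1 on the probe set that was called at P12.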

How the data were processed

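The deposited values are linear signal intensities that the authors read from Affymetrix Mouse Genome 430 2.0 arrays with GeneChip Operating Software 1.4. No scaling target or detection call is given in the sources used here. Genotypes follow the sample titles. For some samples a free-text label gives the opposite genotype. Of 45101 probe sets, 64 array controls were left out of the tests, and gene symbols come from the platform annotation (34958 with 1 symbol). No array was a copy of another.

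Signals were tested as log2(signal + 16) in limma 3.58.1 (R 4.3.3; lmFit and eBayes with a trend), all 12 arrays and 4 groups sharing a model without a block, where a mean signal of 50 was reached in a compared group, with Benjamini-Hochberg adjustment over all probe sets tested and a threshold of 0.05. Precision is limited by 3 arrays a group. Lists took 1 probe set a gene, and list differences are not set tests. The fit was checked on simulated data. Of a list, up to 4 genes past the threshold by size were named, besides every member, *Otx2*, neighbors, the 5 genes most like *Rag1* or *C2cd4b* and up to 10 of the class high only in P12 *Otx2* CKO on the deposited signals. Others were named after their values were seen. Members and lists were chosen with earlier results of these data known.

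The titles number 3 experiments in each group. Deviations from group means of the same number correlated at 0.82, 0.88 and 0.54 at P12 and at 0.24, 0.17 and 0.33 at P1. These are deposited signals, so array brightness enters the correlations, and whether the numbers pair the arrays was not established. The main fit leaves any pairing out. The fit with a block gives each number 1 effect over both ages, and its values are given where they change the call of a list gene. Alternatives were quantile, median and trimmed mean scaling, offsets of 1 and 50, no signal limit or one of 100, each age alone, no trend, and leaving out each array.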

Additional observations from a re-analysis of the deposited data

Results flagged for a closer look

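*Rag1* and *C2cd4b* had all *Otx2* CKO arrays above control at P12 and below control at P1. Their genotype differences at the 2 ages were 3.35 and 3.0 apart (log2), the pattern for which they were chosen, so the difference was not tested. At P1 the *Rag1* difference, −0.23, was close to the median of all probe sets tested there, −0.2.

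The list genes and neighbors compared here were picked for passing the threshold at P12 on these same arrays. That P12 difference is part of the comparison below, so its p-values are not independent of the choice. The share of all probe sets passing the comparison, and its result under other scalings, are not given here. Some of these genes had a genotype difference at P12 that differed from that at P1 in limma. The difference of the differences is on the log2 scale, with p adjusted over all probe sets tested. It was 2.33 for *Myb* (adjusted p = 0.0045), 2.53 for *C1qa* (0.00215), 2.33 for *C1qc* (0.00904), 2.12 for *Tyrobp* (0.00183), 2.17 for *C1qb* (0.00907) and 1.55 for *Pax6* (0.00798). It was −1.89 for *C2cd2l* (0.0102) and −3.32 for *Tnfaip3* (0.000666). These 8 were kept with each of 12 arrays left out. It was 1.87 for *Satb1* (0.0427), 1.45 for *Vcam1* (0.0292), 2.18 for *Tfap2c* (0.0377) and 1.79 for *Iftap* (0.0339). These 4 were lost on leaving out any P1 array, with the exception of P1 *Otx2* CKO replicate 1 for *Iftap*, and on leaving out P12 control replicate 3, with the highest adjusted p at 0.122, 0.0933, 0.116 and 0.106. *Tfap2c* was also lost without P12 control replicate 1 (0.0683) or P12 *Otx2* CKO replicate 1 (0.0626), and *Iftap* without P12 *Otx2* CKO replicate 1 (0.0538). At P1, 7 of the 12 were too dim for a test. *C1qa*, *C1qb*, *C1qc*, *Tyrobp*, *Vcam1* and *Tnfaip3* had means of 16.1, 14.1, 9.73, 13.4, 1.97 and 6.33 in P1 *Otx2* CKO and 14.4, 10.3, 5.73, 8.33, 0.667 and 5.80 in P1 control. *C2cd2l*, the other one, had 24.3 in P1 *Otx2* CKO and 39.0 in P1 control. For these 7 the difference of the differences is close to the P12 difference alone or rests on dim P1 arrays. Genes picked for likeness with *Rag1* or *C2cd4b* were not tested in this way.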

How the results depend on the processing

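The genotype differences of *Rag1* and *C2cd4b* kept their direction at both ages under every alternative run, and with 1 array left out *Rag1* ranged over 2.83 to 3.43 at P12 and −0.28 to −0.19 at P1, and *C2cd4b* over 1.88 to 2.22 and −1.03 to −0.76. Their size depended on offset and scaling. For *Rag1* the P12 difference was 2.53 under quantile normalization and under median scaling, 5.08 with an offset of 1 and 1.99 with an offset of 50. At P1 it was −0.40, −0.39, −0.89 and −0.09 under the same 4. For *C2cd4b* the P12 difference was 1.63, 1.63, 2.97 and 1.33, and at P1 it was −1.23 under median scaling, −1.96 with an offset of 1 and −0.43 with an offset of 50. The P12 minus P1 control difference of *Rag1* was −0.79, −0.76 and −0.53 (quantile, median, offset of 1). That of *C2cd4b* was −1.69 and −1.78, past the threshold (adjusted p = 0.000334 and 0.00039, limma), and −0.96 and −0.27 with the offsets of 1 and 50. The choice of *C2cd4b* used these control arrays, so its p-values here are not independent of that choice. *Rag2* was −0.46 at P12 with an offset of 1, and its control age difference 0.11 (quantile), 1.96 (offset of 1) and 0.15 (offset of 50). With 1 array left out, *Rag2* ranged over −0.31 to 0.10 at P12.

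Over all lists 31 genes were higher and 17 lower at P12. The lists name 184 genes, but many of these were not tested, so the counts are not to be read as shares of 184. Among all probe sets tested, 14.1% were higher and 4.54% lower. The share among tested list genes is not given here, so these are not like for like. The higher count of list genes was 18 after median scaling and 15 with each age fitted alone, and in the fit with experiment number as a replicate block it was 38, with 18 lower. The block changed no other call of a list gene than those given above. Leaving out an array gave 23 to 37 higher and 16 to 18 lower. The cause of these shifts was not tested. *C2cd4a* has no named probe set, and its planned comparisons gave no value. *Rag2* and the P1 values of *Rag1* and *C2cd4b* were too dim for the main test.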
